A study of Mus musculus with 15 samples.

Results

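Wnt signalling genes were followed in whole heads of mouse embryos that differ in the gene for TWIST1, a basic helix-loop-helix transcription factor of head mesenchyme. The set held 10 genes, chosen by name: the Wnt targets Axin2, Lef1, Tcf7, Sp5 and Nkd1, and the secreted Wnt inhibitors Dkk1, Sfrp1, Sfrp2, Sfrp5 and Frzb. All probes named for one of them were taken, which gave 14 of the 45281 probes of the array and 9 of the 10 genes. No probe carried the name Tcf7, which was not analysed here. Of the 14 probes, 10 were detected on at least 3 arrays, and 8 of the 11625 genes tested were from the set: Axin2, Lef1, Sp5, Nkd1, Dkk1, Sfrp1, Sfrp2 and Frzb.

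Each of 15 arrays held RNA of 1 head, taken at embryonic day 9.5 with 18 to 20 somites, from crosses of C57Bl/6, 129 and BALB/c mice. Every embryo carried a floxed Twist1 allele. Control heads (n = 3) had that allele beside a wild-type one and no Cre. Het heads (n = 4) had it beside a deleted allele, also with no Cre. CM-Het heads (n = 4) had it beside a wild-type allele, together with Cre in place of 1 copy of Mesp1. CM-CKO heads (n = 4) had it beside the deleted allele, together with the same Cre, so they also had 1 intact Mesp1 copy. Mesp1-Cre is active in early mesoderm, from which the cranial mesoderm comes, whereas neural crest, brain and surface ectoderm have other origins. No label says whether the embryos of a group came from separate litters, so the p-values measure the spread between these heads.

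In canonical Wnt signalling, a secreted Wnt protein binds a Frizzled receptor and the co-receptors Lrp5 and Lrp6. Beta-catenin is then spared from destruction, enters the nucleus and acts with the DNA-binding proteins of the TCF/LEF family. Axin2, a scaffold of the beta-catenin destruction complex, and Nkd1, which binds Dishevelled, are targets that dampen the pathway. Sp5 is a zinc-finger repressor of the Sp1 family, and Lef1 and Tcf7 are themselves TCF/LEF proteins. The Sfrp proteins and Frzb carry a Frizzled-like domain that binds Wnt proteins outside the cell, whereas Dkk1 binds Lrp5 and Lrp6. In the mouse, Dkk1 is needed to form the anterior head.

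The stretch of 250 bases before the transcription start is printed for 3 genes, since these are a target that rose in CM-CKO heads, an inhibitor whose promoter holds the same kind of motif, and a target that fell. RefSeq promoter windows (GRCm38.p6, 250 bases before to 50 after a start) were held for 9 of the 10 genes, 13 windows in all. For Sfrp1 none is printed. Capitals mark the TCF/LEF motifs CTTTGAT and CTTTGTT on either strand, and each sequence runs 5′ to 3′ on the strand of its gene, at chr2:70474673-70474922 (plus strand) for Sp5, chr19:30549497-30549746 (minus strand) for Dkk1 and chr3:131110047-131110296 (plus strand) for Lef1.
Sp5: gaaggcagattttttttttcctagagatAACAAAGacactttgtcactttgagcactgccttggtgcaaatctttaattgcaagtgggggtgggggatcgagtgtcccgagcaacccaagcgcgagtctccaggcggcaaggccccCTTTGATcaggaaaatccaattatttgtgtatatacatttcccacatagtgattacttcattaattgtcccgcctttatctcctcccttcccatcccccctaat
Dkk1: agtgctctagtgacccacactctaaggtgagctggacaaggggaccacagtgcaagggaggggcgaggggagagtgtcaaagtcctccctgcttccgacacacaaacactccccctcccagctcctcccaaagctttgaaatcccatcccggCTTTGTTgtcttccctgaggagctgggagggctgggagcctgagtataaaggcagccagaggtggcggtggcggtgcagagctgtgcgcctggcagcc
Lef1: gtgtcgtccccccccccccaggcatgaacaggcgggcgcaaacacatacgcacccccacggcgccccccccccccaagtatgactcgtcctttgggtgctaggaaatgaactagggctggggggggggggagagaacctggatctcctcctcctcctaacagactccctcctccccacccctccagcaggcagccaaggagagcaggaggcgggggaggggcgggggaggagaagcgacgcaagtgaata
The Sp5 stretch held 2 matches, CTTTGAT starting 104 bases before the start and CTTTGTT on the opposite strand 222 bases before it. The Dkk1 stretch held 1, CTTTGTT at 98 bases before the start, and this Lef1 stretch held none. Over the 13 windows, CTTTGAT was in 1 and CTTTGTT in 2, against 3.73% and 5.85% of all 32851 windows. The E-box CANNTG, the kind of motif that basic helix-loop-helix proteins bind, was in 10 of the 13 windows, against 72.3% of all windows. Its form CATATG was in 0 and CATCTG in 1 of the 13, against 3.91% and 17.2%. Any CATATG or CATCTG match is also a CANNTG match. These matches describe letters and are no evidence of binding.

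Signals were normalised to a common log2 scale, on which a probe at the detection threshold lay between 4.71 and 4.75, depending on the array. Mean deposited signals ran from 341.0 to 434.4 units per array, 19204 to 19793 probes were detected, and arrays correlated at r = 0.964 to 0.994. The probe for Twist1 read 9.92 ± 0.04 (SD, n = 3) in Control and 9.91 ± 0.14 (SD, n = 4) in CM-Het heads, against 8.97 ± 0.32 (SD, n = 4) in Het heads. In CM-CKO heads it read 9.16 ± 0.17 (SD, n = 4), between 8.94 and 9.34, overlapping the Het heads. The sources used here do not say whether that probe lies in the deleted stretch.

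Genotypes were spread unevenly over the 3 slides. CM-CKO 1 to 3 shared slide 1 with Het 1 alone, and CM-CKO 4 was on slide 3 with heads of every other group. Slide 2 held no CM-CKO head. Markers of other cells moved with the CM-CKO group. Of 13 red blood cell genes tested, 8, 9 and 10 rose against Control, Het and CM-Het, and their summed level was 57715 to 87423 in CM-CKO heads and 36979 to 56280 in all others. Of 6 megakaryocyte and platelet genes, 5, 6 and 6 rose. Endothelial genes fell in 3, 5 and 5 of 11 cases, with summed levels of 4082 to 4761 against 5327 to 6390. Forebrain and midbrain progenitor genes fell in 3, 4 and 4 of 13 cases, with summed levels of 6794 to 9051 against 9068 to 10370. Of 17 trunk, somite and tail bud genes with a probe only 6 could be tested, and none of these changed in any comparison, nor did 2 heart or 8 pharyngeal endoderm and gut genes. In the same order of references, 1, 0 and 0 of 6 cranial mesoderm genes changed, 1, 2 and 0 of 10 neural crest genes, and 3, 3 and 2 of 10 surface ectoderm genes. Over all tested genes, 7.23%, 8.47% and 9.91% changed. The cranial mesoderm gene was higher, and the neural crest genes were 1 higher against Control and 2 lower against Het. Surface ectoderm genes were 2 higher and 1 lower against Control and against Het, and 1 higher and 1 lower against CM-Het. Hindbrain genes set the CM-Het heads apart from Control and Het: their summed level was 651 to 735 in CM-Het heads, 852 to 1022 in Control and Het heads and 624 to 1138 in CM-CKO heads. The median difference of the 6 hindbrain genes tested was −0.83 for CM-Het minus Control, −0.73 for CM-Het minus Het and 0.67 for CM-CKO minus CM-Het. Of these 6 genes 0, 0 and 1 passed, where 0%, 0.0172% and 9.91% of all tested genes passed. The part of these shifts in the Wnt results was not tested. In a whole head, fewer cells of a type and less RNA per cell cannot be told apart.

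Among the Wnt targets, Lef1 fell and Sp5 rose in CM-CKO heads, each against a different reference group, while Axin2 and Nkd1 passed no test. The changes below are fitted log2 differences ± SE, from 1 limma model over all 15 arrays, with Benjamini-Hochberg adjustment over the 11625 genes. A gene counts as changed where its adjusted p is under 0.05. The 3 comparisons of CM-CKO heads share those 4 heads, so they are not independent of each other.

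Lef1, on chromosome 3 (131110297 to 131224357, GRCm38.p6), read 6.55, 6.66 and 6.47 in the Control heads. It read 6.10, 6.24, 6.26 and 6.71 in Het heads and 6.28, 6.38, 5.83 and 6.47 in CM-Het heads. The CM-CKO heads read 5.94, 5.98, 6.23 and 5.78. All CM-CKO heads lay below all Control heads and overlapped both other groups. Lef1 fell against Control by 0.58 on the log2 scale (SE 0.16), to 66.9% of the Control level, with an adjusted p of 0.0427 in limma. The differences from Het (−0.35 ± 0.15, adjusted p = 0.175) and CM-Het (−0.26 ± 0.15, adjusted p = 0.31) did not pass.

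The Lef1 call was close to the threshold. It was lost with slide as a block (−0.57, adjusted p = 0.141), with median scaling (−0.53, adjusted p = 0.156), and when any 1 of these 9 arrays was left out: Control 1, 2 or 3, Het 3, CM-Het 1 or 2, or CM-CKO 1, 2 or 4 (adjusted p = 0.0548 to 0.142). Without background correction the Lef1 difference was −0.27, with an adjusted p of 0.0499. The size of the fall, −0.58 or 66.9% of the Control level as reported, thus depends on the background correction. Within slide 3, CM-CKO 4 lay 0.79 below the 2 Control heads on the log2 scale (difference −0.79), and slide 1 held no Control head. Lef1 had 3 further probes, of which 2 were detected on no array and 1 on a single array, so its value rests on 1 probe.

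Sp5, on chromosome 2 (70474923 to 70477726), read 9.43, 9.27 and 9.75 in Control heads. The Het heads read 9.63, 9.56, 9.27 and 9.07, and the CM-Het heads 9.37, 9.55, 9.66 and 9.34. In CM-CKO heads it read 9.89, 9.93, 9.86 and 9.69. The CM-CKO values lay above every Het and CM-Het value, and 1 Control head, at 9.75, exceeded the lowest of them. Sp5 rose against Het by 0.46 ± 0.13, to 137.7% of the Het level, with an adjusted p of 0.0447. It differed from Control by 0.36 ± 0.15 (adjusted p = 0.148) and from CM-Het by 0.36 ± 0.13 (adjusted p = 0.103), which did not pass.

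With slide as a block the Sp5 difference from Het was 0.34 (adjusted p = 0.17), and within slide 1, where 3 CM-CKO heads met 1 Het head, it was 0.26. Within slide 3, with 1 head of each, the Sp5 difference was 0.62. The Sp5 call was also lost with median scaling (0.36, adjusted p = 0.268) and on leaving out any 1 of Control 1, Het 3 or 4, CM-Het 1, 2, 3 or 4, or CM-CKO 1, 2 or 3 (adjusted p = 0.0509 to 0.127).

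Nkd1, on chromosome 8 (88521342 to 88594887), read 8.53, 8.65 and 8.48 in Control heads and 8.13, 8.75, 8.64 and 8.59 in Het heads. It read 8.69, 8.56, 8.37 and 8.44 in CM-Het and 8.19, 8.21, 8.33 and 8.29 in CM-CKO heads. CM-CKO values lay below all Control and CM-Het values, and Het 1 was the lowest of all 15. The differences of CM-CKO heads were −0.29 ± 0.13 from Control, −0.27 ± 0.12 from Het and −0.26 ± 0.12 from CM-Het, with adjusted p of 0.183, 0.183 and 0.192. Without Het 1 the Nkd1 difference from Het was −0.40 with an adjusted p of 0.0165, and with slide as a block it was −0.08 with an adjusted p of 0.723. The second Nkd1 probe lay near the detection threshold, between 4.59 and 5.28, and gave −0.07, 0.12 and 0.11 for the same comparisons. The deposited value table held the values of the 2 Nkd1 probes the other way round, so which of them is which is not settled.

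Axin2, on chromosome 11 (108917828 to 108950783), passed no test. It read 10.18, 10.16 and 10.13 in Control heads and 9.84, 10.40, 10.25 and 10.05 in Het heads. CM-Het heads read 10.20, 10.17, 10.33 and 10.25, and CM-CKO heads 10.04, 10.21, 10.19 and 9.93. CM-CKO heads overlapped all other groups. The Axin2 differences of CM-CKO heads were −0.06 (95% interval −0.32 to 0.19) from Control, −0.04 (−0.28 to 0.19) from Het and −0.15 (−0.38 to 0.09) from CM-Het. Their adjusted p were 0.802, 0.857 and 0.445.

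**Figure D1:**
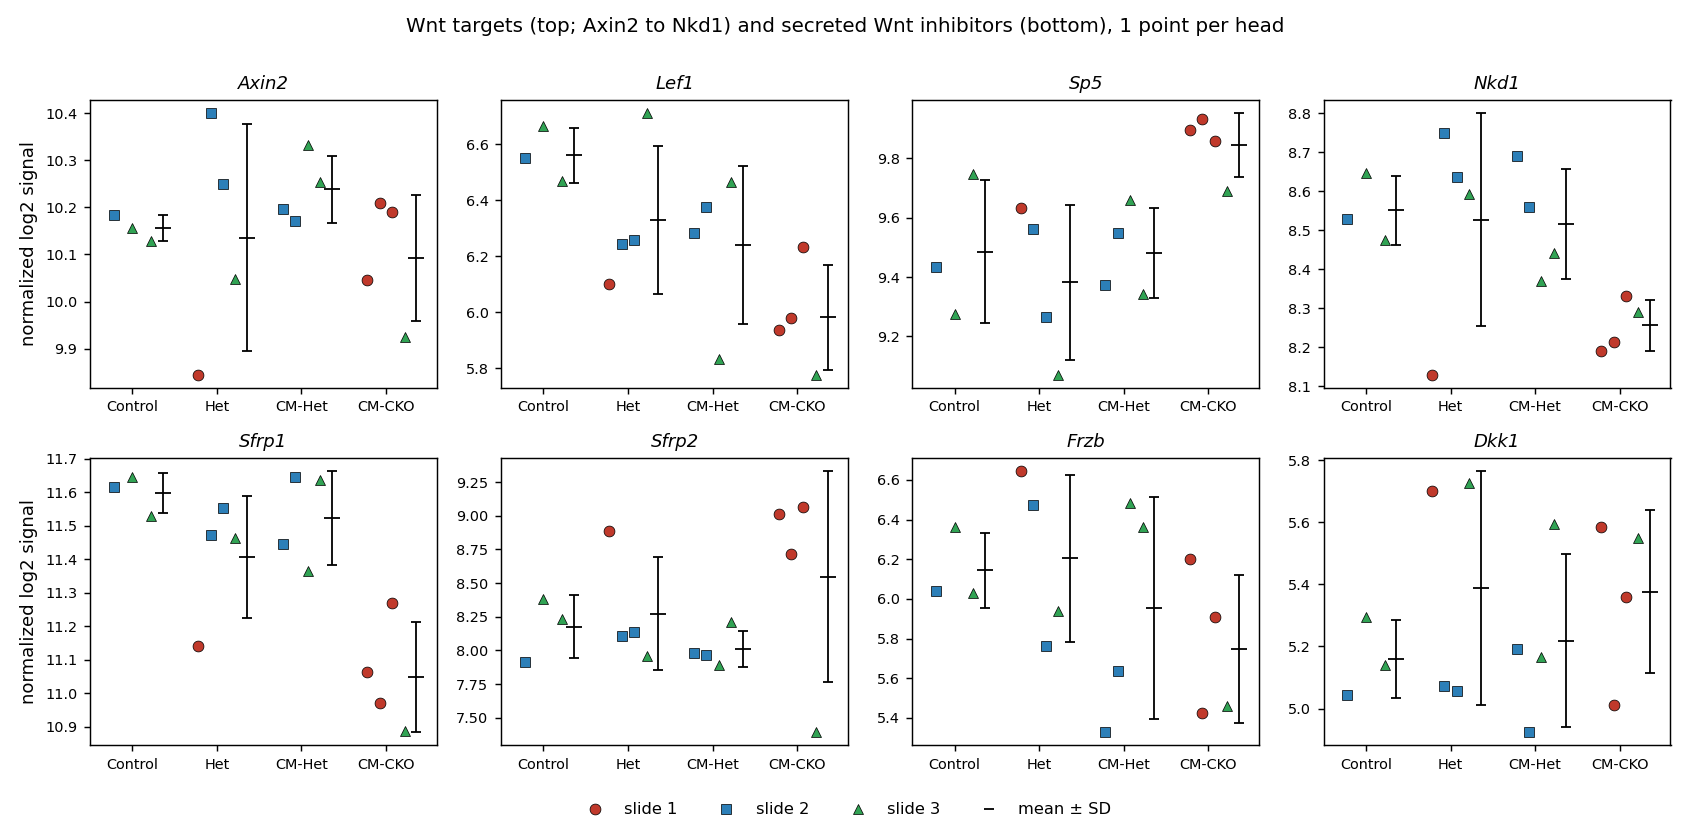
Normalised log2 level of each of the 8 tested genes, with 1 point per head, in the 4 genotype groups. For Sfrp1 the CM-CKO heads (10.89 to 11.27) lie below all Control and CM-Het heads, and for Sfrp2 the CM-CKO heads on slide 1 lie above the fourth.

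Among the secreted inhibitors, Sfrp1 fell in CM-CKO heads against both Control and CM-Het, and no other inhibitor passed a test. Sfrp1, on chromosome 8 (23411383 to 23449632), read 11.61, 11.64 and 11.53 in Control heads. It read 11.14, 11.47, 11.55 and 11.46 in Het heads and 11.44, 11.65, 11.36 and 11.64 in CM-Het heads. The CM-CKO heads read 11.06, 10.97, 11.27 and 10.89. These values lay below all Control and CM-Het heads, and only Het 1, on the same slide as CM-CKO 1 to 3, reached into their range. The difference was −0.55 ± 0.12 from Control (68.4% of its level, adjusted p = 0.0126) and −0.47 ± 0.11 from CM-Het (72.0% of its level, adjusted p = 0.0149). From Het it was −0.36 ± 0.11, with an adjusted p of 0.0577.

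A second Sfrp1 probe read 11.11, 10.97 and 10.92 in Control heads and 10.15, 10.54, 10.69 and 10.70 in Het heads. It read 10.32, 10.95, 10.21 and 11.17 in CM-Het and 10.06, 9.85, 10.10 and 10.45 in CM-CKO heads. All CM-CKO heads lay below all Control heads, while CM-Het heads spread over both. Fitted over all 21869 kept probes, this probe fell against Control by 0.88 on the log2 scale (SE 0.21, adjusted p = 0.0243), and its differences from Het (−0.41, adjusted p = 0.251) and CM-Het (−0.55, adjusted p = 0.103) did not pass. Both probes therefore had the same sign in all 3 comparisons.

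With slide as a block, Sfrp1 differed from Control by −0.49 (adjusted p = 0.0699), from CM-Het by −0.40 (adjusted p = 0.114) and from Het by −0.29 (adjusted p = 0.183). Within slide 3, CM-CKO 4 differed by −0.70, −0.58 and −0.61 from the Control, Het and CM-Het heads there, and within slide 1 the 3 CM-CKO heads differed from Het 1 by −0.04. The Sfrp1 call against Control was lost without Control 1 (adjusted p = 0.052) or Control 2 (adjusted p = 0.057) and with median scaling (adjusted p = 0.0828), and the one against CM-Het without CM-Het 2 (adjusted p = 0.0505) or CM-CKO 2 (adjusted p = 0.0521). The Het comparison passed without Het 1 (adjusted p = 0.0164) or CM-CKO 3 (adjusted p = 0.0242).

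**Figure D2:**
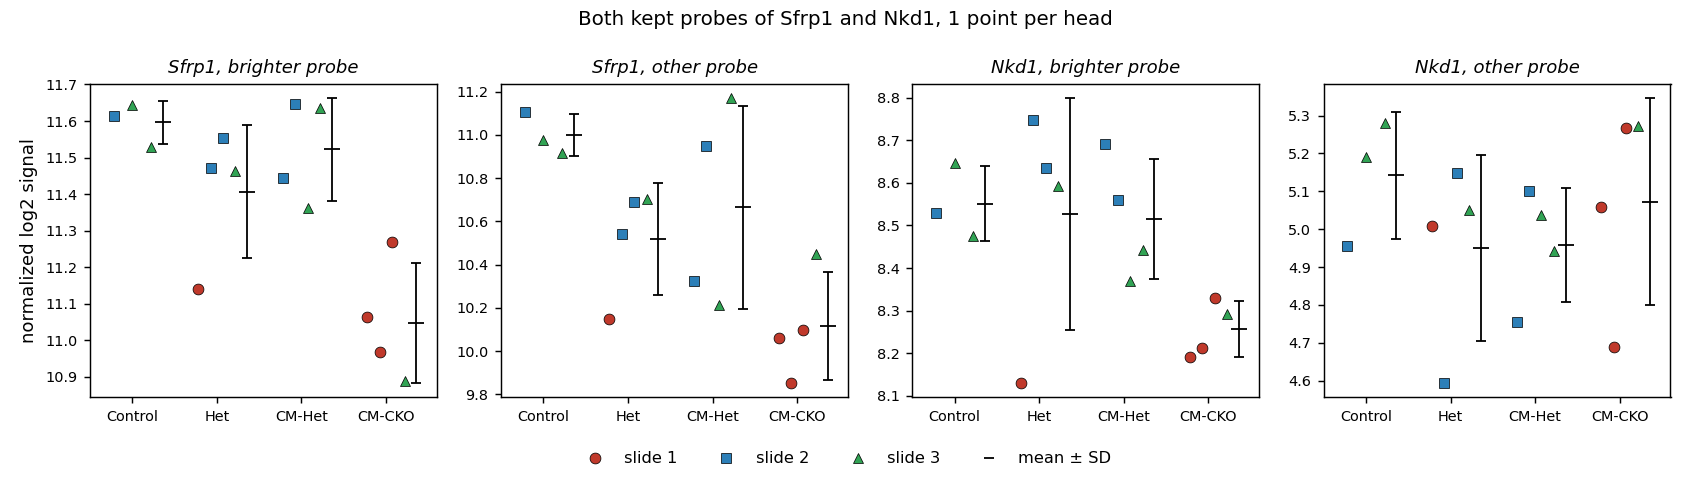
Normalised log2 level of the 2 kept probes of Sfrp1 and of Nkd1 in each head, by genotype group. For Sfrp1 both probes have their CM-CKO heads below all Control heads, and the second Nkd1 probe stays between 4.59 and 5.28.

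Sfrp2, on chromosome 3 (83765750 to 83774314), split by slide. It read 7.92, 8.38 and 8.23 in Control heads, 8.89, 8.10, 8.14 and 7.96 in Het heads and 7.98, 7.97, 7.89 and 8.21 in CM-Het heads. The CM-CKO heads read 9.01, 8.72, 9.07 and 7.39. The 4 arrays of slide 1, Het 1 among them, read 8.72 to 9.07 and all others 7.39 to 8.38, with CM-CKO 4, on slide 3, the lowest of all. Het 1 exceeded the mean of the other Het heads by 0.82, and CM-CKO 1 to 3 exceeded CM-CKO 4 by 1.54. Slide and genotype overlap in this layout, and their parts in the Sfrp2 values were not tested apart beyond the block.

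Fitted without slide, Sfrp2 differed in CM-CKO heads by 0.37 ± 0.32 from Control, 0.27 ± 0.29 from Het and 0.54 ± 0.29 from CM-Het, with adjusted p of 0.529, 0.618 and 0.274. With slide as a block the Sfrp2 differences were −0.52, −0.32 and −0.35, and none passed. Without CM-CKO 4, Sfrp2 was higher by 0.76 (adjusted p = 0.0335), 0.66 (adjusted p = 0.0496) and 0.92 (adjusted p = 0.00755). Without all arrays of slide 1, a choice made after seeing the data that leaves CM-CKO 4 alone in its group and assumes it varies like the others, Sfrp2 was lower (−0.78, −0.67 and −0.62, adjusted p = 0.0161, 0.0281 and 0.0375). The direction for Sfrp2 thus turned with the arrays used.

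Frzb, on chromosome 2 (80411970 to 80447396), read 6.04, 6.36 and 6.03 in Control heads and 6.64, 6.47, 5.76 and 5.94 in Het heads. It read 5.33, 5.64, 6.48 and 6.36 in CM-Het and 6.20, 5.43, 5.91 and 5.46 in CM-CKO heads. All groups overlapped. The Frzb differences of CM-CKO heads were −0.40 ± 0.28, −0.46 ± 0.26 and −0.21 ± 0.26 from Control, Het and CM-Het, with adjusted p of 0.433, 0.303 and 0.672. With slide as a block they were −0.79, −0.83 and −0.67, with adjusted p of 0.141, 0.0664 and 0.189.

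Dkk1, on chromosome 19 (30545876 to 30549496), lay close to the detection threshold. It read 5.04, 5.29 and 5.14 in Control heads and 5.70, 5.07, 5.06 and 5.73 in Het heads. It read 5.19, 4.92, 5.17 and 5.59 in CM-Het and 5.59, 5.01, 5.36 and 5.55 in CM-CKO heads, and the groups overlapped. The Dkk1 differences of CM-CKO heads were 0.22 ± 0.20, −0.01 ± 0.18 and 0.16 ± 0.18, with adjusted p of 0.557, 0.974 and 0.638. Sfrp5 (chromosome 19, 42197971 to 42202252) was detected on 1 of 15 arrays, CM-Het 2, and was not tested.

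Counted together, 2 of the 8 genes changed against Control, both lower, where 7.23% of all tested genes changed and 3.28% were lower. Against Het 1 of 8 changed, higher, where 8.47% of all genes changed and 4.15% were higher. Against CM-Het 1 of 8 changed, lower, where 9.91% changed and 4.62% were lower. Counts of 1 among 8 genes are near these shares and say nothing particular of the set. The CM-CKO heads did not overlap with Control for Lef1, Nkd1 and Sfrp1 (20.1% of all genes), with Het for Sp5 (11.7%) and with CM-Het for Sp5, Nkd1 and Sfrp1 (17.5%). The median difference over the 8 genes was −0.18, −0.16 and −0.18, against −0.03, −0.04 and −0.03 over all genes.

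**Figure D3:**
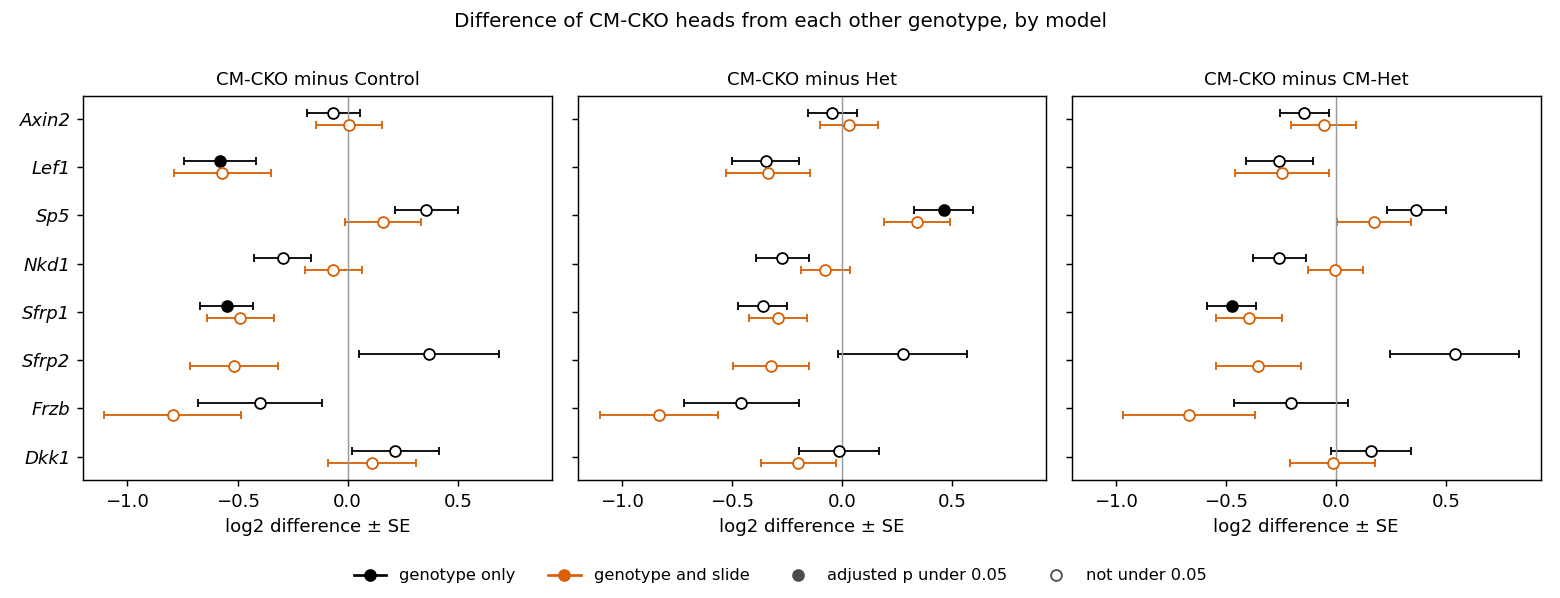
Fitted log2 difference ± SE for the 8 tested genes in the 3 comparisons of CM-CKO heads. Black points are from the model with genotype only, and orange points from the one with slide as a block. Filled points mark an adjusted limma p under 0.05. With genotype only, Sfrp1 is lower by 0.36 to 0.55 on the log2 scale in all 3 comparisons. Sfrp2 passes in none of them with either model.

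Among the 3 groups other than CM-CKO, none of the 8 genes passed in Het against Control (0% of all genes), in CM-Het against Control (0%) or in CM-Het against Het (0.0172%), and none had an unadjusted limma p under 0.05 there. The widest of these differences was −0.32 ± 0.16 for Lef1 in CM-Het heads against Control (95% interval −0.67 to 0.03), and Lef1 was the gene whose groups did not overlap there (6.98% of all genes). The interaction, the CM-CKO minus Het difference less the CM-Het minus Control one, passed for 0 of 8 (1.07% of all genes), with 1 unadjusted p under 0.05, for Sp5 (0.47, adjusted p = 0.284).

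Within groups, Sfrp2 (SD 0.48) and Frzb (SD 0.42) varied more than 97.7% and 96.8% of tested genes, while Axin2 and Sfrp1 had an SD of 0.15, below the all-gene median of 0.19. Over the 15 arrays, and among genes whose SD was at least 0.8 of that of the gene compared, Sfrp1 was followed most closely by Macroh2a1, a histone variant gene (root mean square difference 0.0963 of centred log2 levels), and by 1500009L16Rik (0.102). For Lef1 the closest were Foxd2os (0.123) and 1500009L16Rik (0.155), and for Sp5 Pfkl, a glycolytic enzyme gene (0.131), and Csnk1d, a kinase gene (0.137).

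Beyond these 10 genes, 103 other Wnt pathway genes were listed, of which 78 were tested. Against Control 2 rose and 4 fell, against Het 2 rose and 8 fell, and against CM-Het 3 rose and 6 fell, where 7.23%, 8.47% and 9.91% of all genes changed. Their median differences were −0.07, −0.08 and −0.07, against −0.03, −0.04 and −0.03 over all genes. None of the 78 changed in Het or CM-Het heads against Control or against each other. By list, in the order Control, Het and CM-Het, 1, 1 and 3 of 13 ligand genes changed, 0, 3 and 1 of 10 secretion and secreted modulator genes, and 0, 2 and 0 of 19 receptor and membrane genes. Of 24 intracellular genes 4, 4 and 4 changed, and of 13 other reported targets 1, 0 and 2. Wnt3a is in both the first and the last list. Draxin, Fzd2 and Wnt3a also passed in a comparison and are named after their values were seen.

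Of the intracellular genes, 3 fell and 1 rose against Control, and 4 fell against each of Het and CM-Het. Tcf7l2, a TCF/LEF family protein, read 9.59, 9.43 and 9.68 in Control, 9.23, 9.56, 9.54 and 9.84 in Het, 9.62, 9.74, 9.76 and 9.56 in CM-Het, and 8.99, 9.08, 9.22 and 9.12 in CM-CKO heads. All CM-CKO heads lay below all others. Of all tested genes, 20.1%, 11.7% and 17.5% had CM-CKO heads that did not overlap with Control, Het and CM-Het, each taken singly. The share that overlapped with none of these groups was not counted. Tcf7l2 fell by 0.46 (adjusted p = 0.0341), 0.44 (adjusted p = 0.0254) and 0.57 (adjusted p = 0.00606) on the log2 scale against Control, Het and CM-Het, and all 3 of its probes had this sign. Tcf7l1, a TCF/LEF repressor, fell by 0.35 against Control (adjusted p = 0.0393) and 0.32 against CM-Het (adjusted p = 0.0353).

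Bcl9 and Bcl9l, adaptors that join beta-catenin to Pygopus, fell against Het by 0.44 (adjusted p = 0.0169) and 0.68 (adjusted p = 0.0211), and against CM-Het by 0.37 (adjusted p = 0.0388) and 0.72 (adjusted p = 0.0156). Tle1, a Groucho co-repressor, fell by 0.36 against Control (adjusted p = 0.0403) and 0.32 against Het (adjusted p = 0.0445). Of its 4 kept probes, 3 had that sign against Control and 4 against Het. Ctnnb1, the beta-catenin gene itself, differed by 0.10, −0.03 and 0.08 from Control, Het and CM-Het, none of which passed. Of its 3 kept probes, 1, 2 and 1 had the sign of these differences. With slide as a block, the calls of Tcf7l2, Tcf7l1, Tle1, Bcl9 and Bcl9l were lost. When each of the 15 arrays was left out in turn, Tcf7l2 passed 10, 10 and 15 times against Control, Het and CM-Het, Tcf7l1 passed 5 and 9 times in its 2 comparisons, and Tle1 passed 5 and 4 times. Bcl9 passed 14 and 6 times and Bcl9l 14 and 14 times.

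Wnt10a, a ligand gene, read 4.53, 4.69 and 4.76 in Control heads, 4.68, 4.72, 4.86 and 4.64 in Het heads, 4.55, 4.77, 4.87 and 4.79 in CM-Het heads and 5.16, 4.90, 5.00 and 5.35 in CM-CKO heads. It was detected in all 4 CM-CKO heads but in only 1 of 3 Control, 1 of 4 Het and 3 of 4 CM-Het heads, so the reference levels lie around or below the detection threshold and the size of the difference is uncertain. The fitted difference was 0.44 (adjusted p = 0.0328), 0.38 (adjusted p = 0.0407) and 0.36 (adjusted p = 0.0459) against Control, Het and CM-Het, calls that held with the slide block and in 10, 7 and 3 of 15 cases with an array left out. Sostdc1, a secreted antagonist of BMP and Wnt signalling, read 8.36, 8.52 and 8.44 in Control heads, 7.97 to 8.46 in Het heads, 7.85, 8.02, 8.12 and 8.09 in CM-Het heads and 8.83, 8.87, 8.88 and 8.36 in CM-CKO heads. It rose by 0.52 against Het (adjusted p = 0.0284) and 0.72 against CM-Het (adjusted p = 0.00474), and its interaction of 0.94 passed (adjusted p = 0.0373), with CM-Het heads at −0.42 from Control. Daam1, a Dishevelled-binding formin, rose against Control by 0.67 (adjusted p = 0.0287), and 3 of its 4 kept probes had that sign. With slide as a block the Sostdc1 and Daam1 calls were lost. With an array left out, Sostdc1 passed 10 and 15 times and its interaction 5 times, and Daam1 9 times, of 15.

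Id2, a helix-loop-helix inhibitor gene listed among other reported Wnt targets, fell by 1.04 against Control (adjusted p = 0.0022) and 0.77 against CM-Het (adjusted p = 0.0077), but only 2 of its 3 probes had that sign in the first case and 1 of 3 in the second. Id2 read 9.40 to 9.85 in Het heads and 10.31 to 10.50 in Control heads. That difference of −0.75 did not pass (adjusted p = 0.747), and 2 of 3 probes had its sign. Nor did Id2 pass in CM-CKO against Het (−0.29, adjusted p = 0.294). Dkk3, a secreted protein of the Dickkopf family, and Fzd10, a Frizzled receptor, fell against Het by 0.52 (adjusted p = 0.0104) and 0.38 (adjusted p = 0.0149), also with the slide block. Dkk3 did not pass against Control (−0.24, adjusted p = 0.25) or CM-Het (−0.28, adjusted p = 0.136). Nor did Fzd10 pass against Control (−0.21, adjusted p = 0.183) or CM-Het (−0.10, adjusted p = 0.496). Het heads differed from Control by 0.28 for Dkk3 and 0.16 for Fzd10, neither of which passed. Wnt5b, a ligand, fell against CM-Het by 0.48 (adjusted p = 0.0243), a call lost with the slide block and kept in 9 of 15 cases with an array left out. Its differences from Control (−0.13, adjusted p = 0.619) and Het (−0.37, adjusted p = 0.0774) did not pass. CM-Het heads differed from Control by 0.35 for Wnt5b, which did not pass either.

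**Figure D4:**
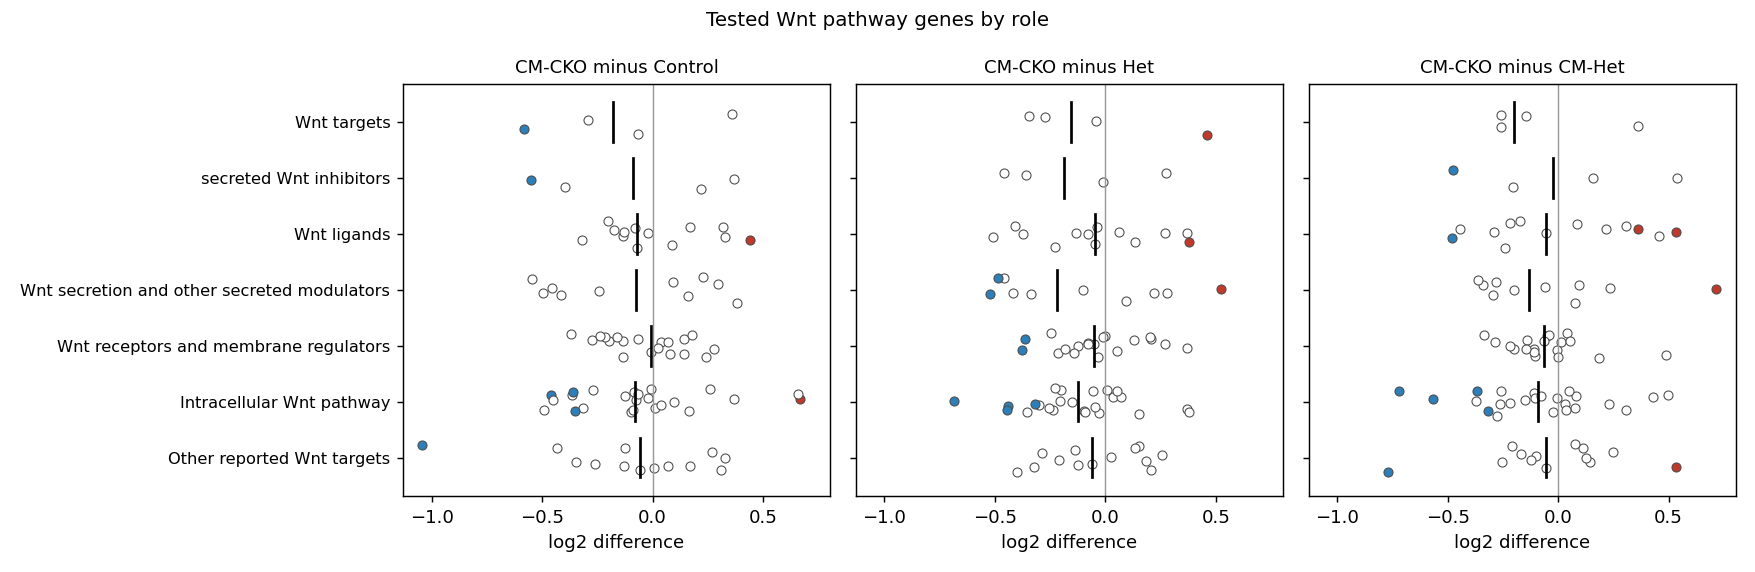
Fitted log2 differences of the tested Wnt pathway genes by list in the comparisons of CM-CKO heads. The Wnt targets and secreted Wnt inhibitors of the set come first, then the lists of other genes. Black bars are list medians, filled red and blue points are genes called higher and lower, and open points are genes not called. Vertical scatter within a list only separates points, and the filled blue points of the intracellular list are those named above, Tcf7l2 among them.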

How the data were processed

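The deposited table held an intensity per probe and array, neither normalised nor background-corrected, with a detection p-value per probe, per the file headers. The authors' value table held log2 values. Deposited intensities, quantile-normalised on a log2 scale, matched that table within 0.02 on every array for 42477 probes and did not for 2804. Of the 14 probes of the set, 12 matched and the 2 Nkd1 probes did not. The match of the other named Wnt genes and of the markers was not examined. The sources used here do not name the software that made the intensities. Deposited detection p-values were out of order for 74.4% to 75.6% of entries (tolerance 0.05) and were re-attached by rank within each array; the column of Het 1 repeated the value table and was replaced by the average by rank of the others.

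Intensities were background-corrected by the normexp model (limma nec, offset 16, control beads inferred from detection p), quantile-normalised and put on a log2 scale. Probes with detection p under 0.05 on at least 3 arrays were kept (21869), and the brightest kept probe stood for each gene. limma 3.58.1 in R 4.3.3 fitted 1 model of the 4 groups with 7 comparisons. The code was first run on simulated data with independent genes and no slide effect, which cannot speak to the uneven slide layout. Gene names came from the platform annotation, positions and promoters from RefSeq (GRCm38.p6), and figures from matplotlib 3.10.9. Alternatives were background correction, scaling, filter, probe rule, the authors' table, slide and replicate blocks and left-out arrays. The 10 genes, the other Wnt lists and the markers were chosen with earlier results of these data known. Named Wnt pathway genes are the members, Ctnnb1, and at most the 6 lowest adjusted p under 0.05 per comparison. The number of arrays limits the precision.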

Additional observations from a re-analysis of the deposited data

Results flagged for a closer look

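Sostdc1 had an interaction of 0.94 on the log2 scale (limma adjusted p of the interaction = 0.0373). CM-CKO heads differed from Het heads by 0.52 and CM-Het heads from Control heads by −0.42, so the 2 differences had opposite signs. The first passed on its own (adjusted p = 0.0284) and the second did not (adjusted p = 1). With each array left out, the interaction was 0.86 to 1.07, past the threshold in 5 of 15 cases. The interaction call was lost with slide as a block. CM-CKO 4, at 8.36, lay within the range of the Het heads, 7.97 to 8.46.

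A Lef1 probe outside the tests was detected in Het 2 alone, at 4.76, where the other arrays read 4.27 to 4.68. The Sfrp5 probe was detected in CM-Het 2 alone, at 4.74, where the others read 4.29 to 4.65. Both values lie at the detection threshold of these arrays.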

How the results depend on the processing

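Calls among the 8 genes are counted below by setting; the cause of a change was not tested. Over all genes, against Control, Het and CM-Het, the shares called were 7.23%, 8.47% and 9.91% as reported, 8.09%, 10.1% and 9.21% with the slide block, 0.267%, 5.86% and 3.43% with the replicate block and slide, 2.34%, 2.86% and 7.32% with only the arrays compared, 3.73%, 5.01% and 7.61% with median scaling, 3.79%, 4.82% and 5.36% without the filter, and 12.5%, 16% and 14.9% without slide 1. In the same order the shares were 8.05%, 9.35% and 10.3% without background correction and 7.87%, 9.2% and 10.1% in the authors' value table. They were 7.66%, 8.58% and 9.99% with the mean of probes and 6.49%, 8.46% and 9.71% with the replicate block. The 2 calls against Control became 0 with median scaling, the slide block, the replicate block with slide, or only the arrays compared, and 1 without the filter or in the authors' value table. The 1 call against Het became 0 with median scaling, without the filter, with the slide block, the replicate block with slide, or only the arrays compared, and 2 without background correction, in the value table or without slide 1. The 1 call against CM-Het became 0 with the slide block or the replicate block with slide, and 2 without slide 1. Leaving out each array gave 0 to 2 calls against Control, 0 to 3 against Het, 0 to 2 against CM-Het, and 0 in the other comparisons. Without slide 1, which was chosen after seeing the data, Sfrp2 turned to −0.784, −0.6737 and −0.6178 against Control, Het and CM-Het.

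For the 78 other Wnt pathway genes, to be read against the same shares, the 6 calls against Control became 1 with median scaling, 2 with the mean of probes, 3 with the replicate block, 0 with that block and slide, 1 with only the arrays compared and 10 without slide 1. The 10 against Het became 2 with median scaling, 3 with the replicate block and slide, 0 with only the arrays compared and 19 without slide 1. The 9 against CM-Het became 5 with median scaling, 0 with the replicate block and slide and 14 without slide 1. The 1 interaction call, where 1.07% of all genes passed as reported, became 0 with median scaling (0.869% of all genes) and without the filter (0.504%). It also became 0 with the slide block (2.26%) or with the replicate block and slide (0.748%), and 2 in the value table (1.06%). Leaving out each array gave 1 to 9, 4 to 12, 4 to 12 and 0 to 4 calls in these comparisons, and 0 in the rest.

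Of 21 pairs of heads with the same replicate number, 5 correlated over 0.1 (r = −0.13 to 0.33). The highest pair, Het 1 with CM-CKO 1, shared slide 1. Pairs with unlike numbers were not compared, so these values do not settle whether replicate numbers pair the heads. The replicate block alone left the member calls at 2, 1 and 1. Median scaling moved the share of higher calls against Control from 54.7% to 77.4% and against CM-Het from 53.4% to 39%, and put the all-gene median at −0.12 for CM-CKO minus CM-Het, 0.13 for CM-Het minus Control and −0.21 for the interaction. Every difference named here is on the scale of its own setting, and signal over background limits the values of Dkk1, Wnt10a, Lef1, Frzb and the second Nkd1 probe.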
